A study of Mus musculus with 32 samples.

Results

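The genes of the cytosolic ribosomal proteins were followed in the uterus of FVB/N mice from the non-pregnant state to late gestation. Members were taken by name, as symbols that begin with Rpl or Rps and a digit together with Rplp0, Rplp1, Rplp2 and Rpsa, and S6 kinases, binding proteins and pseudogenes were left out. A detected probe carried the symbol of 64 such genes, which were measured by 79 probes, among 13439 genes and 20169 probes in all. RNA of 32 mice was hybridised to Illumina MouseRef-8 v2 arrays, with 1 mouse per array. The non-pregnant state (NP), embryonic day 6.5 (E6.5) and E8.5 were represented by 4 mice each, and the 4 later time points, namely E10.5 and E12.5 in mid-gestation followed by E15.5 and then E17.5, by 5 mice each. The labels give the same strain for all 7 groups and name no transgene or treatment. In pregnant mice the wall of the uterus was taken where embryos had implanted, embryo and placenta were removed, and decidua was scraped away. This dissection is described for pregnant mice only, so that pregnancy and dissection cannot be told apart in comparisons with NP. Of 88 protein-coding symbols that meet the name rule in RefSeq, 24 had no kept probe with that symbol here, Rplp2, Rpl11 and Rps18 among them, and 1266 kept probes carried no symbol.

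A ribosome is built from a small and a large subunit, each of ribosomal RNA and many small proteins, and most members encode those proteins. Each protein is normally needed in the same amount as the others. Their mRNAs belong to the most abundant of a growing cell, and in vertebrates most of them begin at a cytosine followed by an unbroken run of pyrimidines, the 5' terminal oligopyrimidine (TOP) tract, through which growth signals such as mTOR control their translation. New ribosomes are assembled in the nucleolus, where RNA polymerase I copies the ribosomal RNA genes. In the uterus, where tissue first multiplies and then enlarges in pregnancy, the supply of ribosomes bears on how much protein the wall can make.

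The sequence at the start site is shown first, because a pyrimidine tract there is the feature most members share and the name rule did not use it. Between 13280 and 14357 probes per array were detected, and the number of arrays limits the precision of every value. A tract was counted as a C followed by at least 4 C or T that began within 10 bases of a RefSeq start, on the strand of the gene. RefSeq promoters (build GRCm38.p6) were matched for 55 of the 64 members. The 30-base windows of 6 members hold 12 bases before the annotated start and 18 from it on, with the tract in capitals. Rps15a, Rpl13a and Rpl27a are the members with the largest falls described below, Rpl7a changed at the first comparison, Rps6 is the target of S6 kinase, and Rps3 is a falling member in which no tract was found in the window.
Rps15a: tctttctgccatCTTCCCTCgccggtgagt
Rpl13a: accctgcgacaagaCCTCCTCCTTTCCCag
Rpl27a: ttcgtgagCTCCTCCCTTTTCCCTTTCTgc
Rpl7a: ccCTCTTCTTTCTTTCTCCagcagccgagc
Rps6: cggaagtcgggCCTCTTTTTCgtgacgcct
Rps3: gcaagggtcgccgcgctgcgcggcgtcatt
The windows lie at chr7:118116130-118116159 (minus strand) for Rps15a, chr7:45128728-45128757 (minus) for Rpl13a, chr7:109519183-109519212 (plus) for Rpl27a, chr2:26910795-26910824 (plus) for Rpl7a, chr4:86857350-86857379 (minus) for Rps6 and chr7:99483692-99483721 (minus) for Rps3. The tract measured 20 bases in Rpl27a and 14 in Rpl13a. In Rpl7a the capitals count 17 bases from the edge of the search, and the run of C and T continues before them.

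Of the 55 matched members, 34 (61.8%) had such a tract, against 33.3% of all 27025 genes of the table. On the opposite strand the share was 21.8% of the members and 37.2% of all genes. With at least 6 C or T after the first C, the shares were 47.3% of the members and 13.6% of all genes on the strand of the gene. Among members that were lower at E17.5 than at E6.5, 26 of 39 had the shorter tract, and among the others 8 of 16. A match is a description of letters near an annotated start, and the true start of a transcript can lie elsewhere.

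Over gestation the signal of the ribosomal protein genes went down in small steps. The mean log2 signal of the 64 genes was 11.35 ± 0.06 (SD, n = 4) in NP, 11.27 ± 0.04 (n = 4) at E6.5, 11.19 ± 0.03 (n = 4) at E8.5, 11.18 ± 0.09 (n = 5) at E10.5, 11.02 ± 0.05 (n = 5) at E12.5, 10.89 ± 0.05 (n = 5) at E15.5 and 10.83 ± 0.07 (n = 5) at E17.5. Mice at E6.5 lay between 11.21 and 11.31 and mice at E17.5 between 10.76 and 10.93, without overlap. The 39 genes named for the large subunit went from a mean of 11.02 ± 0.05 to 10.58 ± 0.07 between these time points. The 25 named for the small subunit, Rps23rg1 among them, went from 11.66 ± 0.04 to 11.21 ± 0.07. Of the 64 genes, 41 had their highest group mean in NP, 39 their lowest at E17.5 and 16 their lowest at E15.5. Arrays were quantile normalised, so a change is a change relative to the other probes, and in a whole tissue fewer cells of a type and less RNA per cell cannot be told apart.

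**Figure D1:**
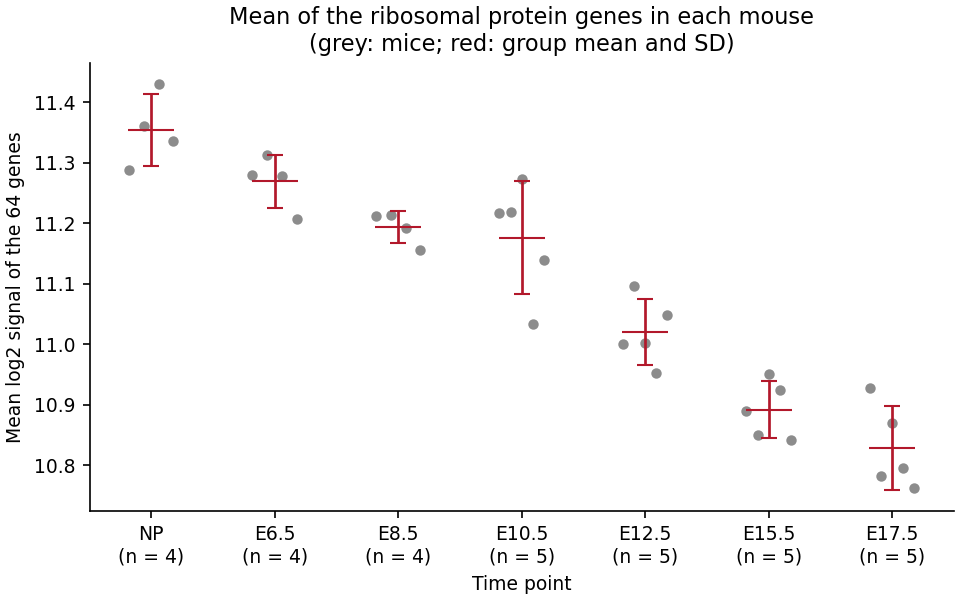
Mean log2 signal of the 64 ribosomal protein genes (vertical axis) in each mouse (grey points) by time point (horizontal axis), with the group mean and SD in red. The 4 mice at E6.5 sit between 11.21 and 11.31 and the 5 at E17.5 between 10.76 and 10.93.

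From E6.5 to E17.5, limma called 43 of the 64 members lower and 0 higher, with a threshold of 0.05 on the adjusted p (67.2%, where 17% of all genes tested were lower and 12.3% higher). The count of higher members at an unadjusted p under 0.05 was 1 (1.56%, against 16.1% of all genes). The median change of the members was -0.48 on the log2 scale, against -0.04 over all genes, and 59 of 64 changes were negative. In 34 members every mouse at E17.5 lay below every mouse at E6.5, which was so for 14% of all genes. Over the 6 pregnant time points together, limma's F test called 40 members (62.5%, against 37.9% of all genes). When the arrays were scaled to a common median in place of quantile normalisation, 23 members were lower and 0 higher, and of all genes 1528 were lower and 1809 higher (45.8% of calls lower), where the main fit had 2285 lower and 1654 higher (58.0%).

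**Figure D2:**
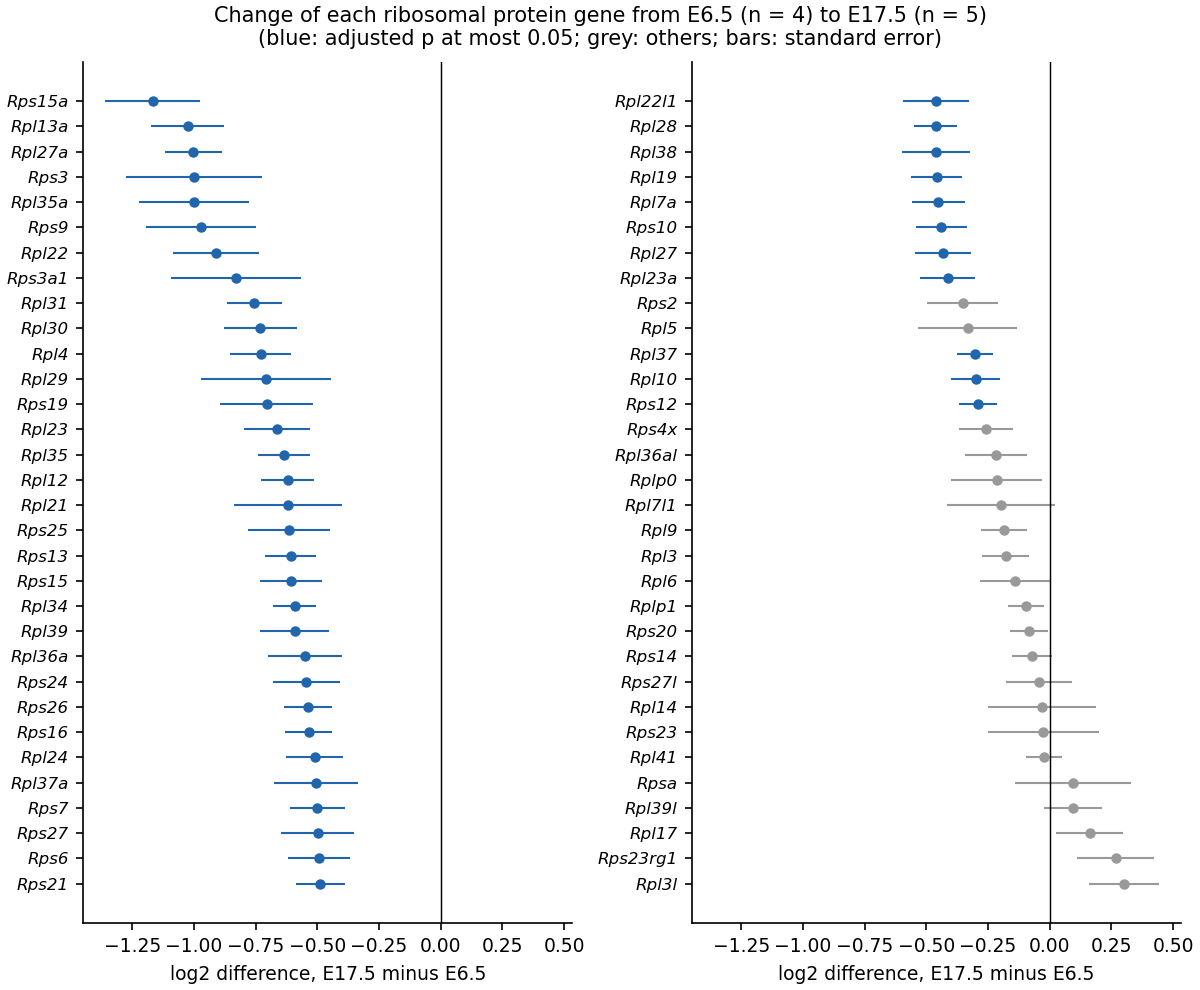
log2 difference between E17.5 (n = 5) and E6.5 (n = 4) for each of the 64 genes (horizontal axis), ordered by size, with the standard error of limma's fit as bars. The 43 genes in blue passed an adjusted p of 0.05 and all of these lie left of zero; the 21 in grey did not pass.

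The change built up over several intervals, and hardly any single interval carried a call. From NP to E6.5, 1 member was lower (Rpl7a, where 3.63% of all genes were lower). From E6.5 to E8.5, 1 was higher (Rpl38, background 2.14% higher), and from E8.5 to E10.5, 1 was lower (Rpl22, background 2.37% lower). From E10.5 to E12.5 limma called 0 members, where 0.729% of all genes were called lower. At an unadjusted p under 0.05, 15 members were lower (23.4%, against 6.19% of all genes) and 0 higher (against 5.48%). From E12.5 to E15.5, 1 was lower (Rps24, background 0.558%), with 17 lower at an unadjusted p (26.6%, against 5.99% of all genes). From E15.5 to E17.5 limma called 0 members, where 0.134% of all genes were called lower. At an unadjusted p, 2 members were lower (3.12%, against 3.75% of all genes) and 0 higher (against 4.61%). The counts called at the adjusted p, of 0 or 1, ranged from 0 to 4 when single mice were left out.

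Longer spans gave more calls. From E8.5 to E17.5, 33 members were lower (background 13.6%) and 0 higher (background 10.4%). At an unadjusted p under 0.05, 1 was higher (1.56%, against 14.5% of all genes). From E10.5 to E17.5, 33 were lower (background 9.35%) and 1 higher (background 8.98%). With median scaling 20 members were called in this span, and the share of all genes was not computed for that setting. From NP to E17.5, 47 were lower (background 19.1%) and 1 higher (background 14.1%), while from NP to E8.5 only 2 were lower, Rpl36a and Rpl7a (background 6.32%). The spans that end at E17.5 share those 5 mice and are not independent of each other. The gene that was higher in both spans was Rpl3l, a form of Rpl3 known from striated muscle. Its probe was detected on 4 of 32 arrays and on none before E15.5, so that no fold is given.

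**Figure D3:**
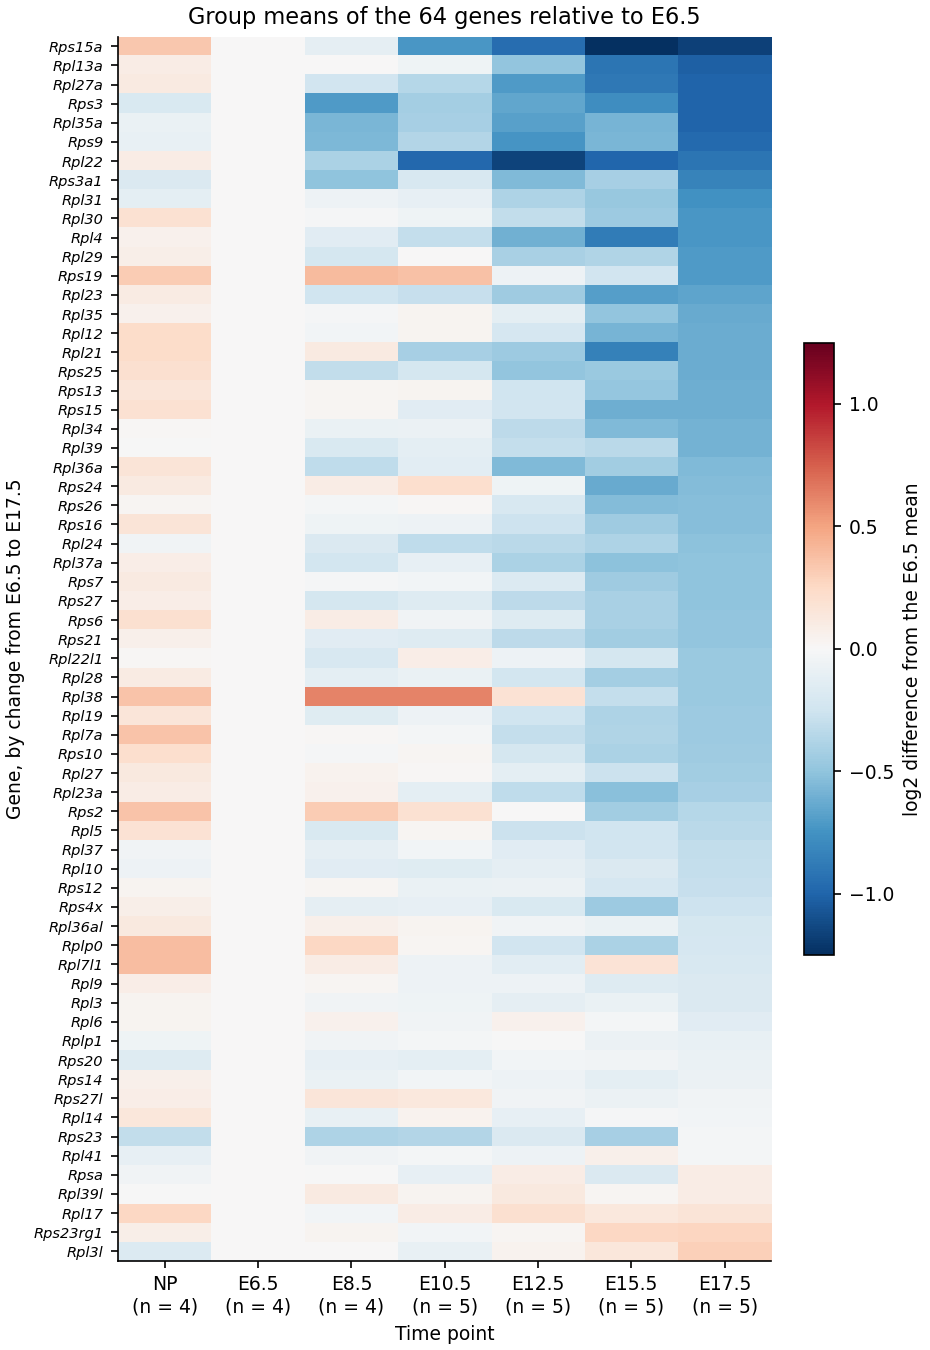
Group mean of each of the 64 genes minus its own mean at E6.5 (colour, log2 scale) for NP and the 6 pregnant time points (horizontal axis), with genes ordered by their change from E6.5 to E17.5. Blue deepens from E12.5 on in most rows, Rpl22 is already low at E10.5, and Rpl38 is above its E6.5 mean at E8.5 and E10.5.

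The largest fall from E6.5 to E17.5 was that of Rps15a, a protein of the small subunit. Its log2 signal was 7.38, 7.55, 7.50 and 7.19 in the mice at E6.5 and 6.25, 6.31, 6.503, 6.26 and 5.87 at E17.5. The groups did not overlap, and the change was -1.17 (SE 0.19, limma's adjusted p = 2.22e-05), which left 44.5% of the signal at E6.5.

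Rpl13a, a protein of the large subunit known in mammals for a further role in silencing inflammatory mRNAs, was flat until E10.5. Mice at E6.5 had 11.15, 11.14, 11.04 and 11.38, and mice at E17.5 had 10.18, 10.21, 10.35, 9.98 and 10.04. All of the E17.5 mice were lower (-1.02, SE 0.15, limma's adjusted p = 3.50e-06). Rpl27a, also of the large subunit, had 10.44, 10.34, 10.51 and 10.03 at E6.5 and 9.42, 9.07, 9.45, 9.46 and 9.25 at E17.5. The groups did not overlap (49.9% of the signal left, SE of the log2 change 0.11), and the adjusted p was the smallest of the members (8.46e-08 by limma). A dimmer probe of Rpl27a, detected on 31 arrays, changed by -0.30 and did not pass (limma's adjusted p over probes = 0.0592).

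Rpl31 and Rpl22 sit near the rim of the tunnel through which the new peptide leaves the large subunit. For Rpl31 the mice had 10.68, 10.80, 10.76 and 10.67 at E6.5 and 10.00, 9.81, 10.05, 10.12 and 9.86 at E17.5. All mice at E17.5 lay below those at E6.5, and both groups were narrow (-0.76, SE 0.11, limma's adjusted p = 4.82e-06). Rpl30 of the large subunit fell by 0.73 (SE 0.15). Of the 9 measured members placed at this rim 8 were lower (median -0.46), where 43 of all 64 members were lower (median -0.48). The 9th, Rpl17, was detected on 1 array.

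Rpl22, whose protein also binds mRNA and is dispensable for ribosome assembly in mice, was the member called between E8.5 and E10.5. Mice at E6.5 had 10.73, 11.05, 10.84 and 11.04, those at E8.5 had 10.34, 10.60, 10.35 and 10.78, and those at E10.5 had 9.91, 9.79, 10.04, 9.70 and 10.20. The step from E8.5 to E10.5 was -0.59 (SE 0.17, limma's adjusted p = 0.0479), with every mouse at E10.5 below every mouse at E8.5. This call lay near the threshold and was lost in 22 of the 32 fits that left out 1 mouse (limma's adjusted p between 0.0293 and 0.166) and with median scaling. Rps15a changed by -0.61 in the same interval and was not called. From E10.5 to E17.5 Rpl22 changed by 0.07 (SE 0.16, limma's adjusted p = 0.839).

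Rps6, the small-subunit protein that S6 kinase phosphorylates, had 13.52, 13.62, 13.20 and 13.53 at E6.5 and 12.81, 12.96, 13.10, 13.27 and 12.73 at E17.5. The groups overlapped by 1 mouse, and the change was -0.49 (SE 0.13, limma's adjusted p = 0.00317), or -0.29 and no longer past the threshold with median scaling. Genes mutated in human Diamond-Blackfan anaemia, an inherited failure of red cell formation, form another group. Of its 11 measured members 10 were lower, with a median change of -0.54. Over all 64 members 43 were lower (67.2%, median -0.48), and the difference was not tested. The exception among the 11 was Rpl5, which carries 5S ribosomal RNA into the large subunit. It had 13.80, 13.93, 13.98 and 13.67 at E6.5 and 14.00, 13.64, 13.72, 12.86 and 13.33 at E17.5, with a change of -0.33 (SE 0.20, limma's adjusted p = 0.235).

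Some members took part in the early steps. Rpl7a of the large subunit had 11.77, 11.96, 11.91 and 11.97 in NP and 11.55, 11.53, 11.64 and 11.48 at E6.5. The groups did not overlap (-0.35, SE 0.11, limma's adjusted p = 0.0484). This call also lay near the threshold. It was lost in 21 of the 32 fits that left out 1 mouse (limma's adjusted p between 0.0273 and 0.121) and in 5 of 11 other settings. Among these were neqc values, which recompute the background and normalisation from the intensities, and median scaling. With the replicate number as a block limma's adjusted p was 0.0549, and with runs of 8 description numbers (described below) as a block 0.123. Without the 5 mice high in placental and yolk sac markers, also described below, it was 0.0608. Rpl38, a small protein of the large subunit that in mouse embryos is needed for the translation of Hox mRNAs, rose from 8.73, 8.28, 8.42 and 8.42 at E6.5 to 9.11, 9.07, 9.00 and 9.19 at E8.5. All of the mice at E8.5 were above those at E6.5 (0.62, SE 0.15, limma's adjusted p = 0.0139). A brighter probe of Rpl38 did not show this, with means of 14.44 at E6.5 and 14.38 at E8.5.

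Rps24 of the small subunit had 8.16, 8.29, 8.17, 8.20 and 8.47 at E12.5 and 7.77, 7.39, 7.65, 7.89 and 7.71 at E15.5. The groups did not overlap (-0.58, SE 0.13, limma's adjusted p = 0.0153). With the probes taken, Rps24 was the only member past the threshold between these time points. A brighter probe of Rps24 did not show this fall, with a change of -0.14 (limma's adjusted p = 0.593).

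The change differed between members with bright and with dim probes. Rplp1, a protein of the stalk that recruits elongation factors, had between 14.62 and 14.69 at E6.5 and between 14.49 and 14.62 at E17.5, a change of -0.10 (SE 0.07, limma's adjusted p = 0.353). The highest value of the table was 14.69. For Rpl41, the smallest ribosomal protein, mice at E6.5 averaged 14.48 and those at E17.5 averaged 14.46. Of the 10 members whose probe averaged 14 or more, 3 were lower, with a median change of -0.18. Of the 26 between 12 and 14, 22 were lower (median -0.51), and of the 15 between 7 and 12 all 15 were lower (median -0.73).

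Of the 13 members under 7, 3 were lower (median -0.03). Among these is Rpsa, which encodes the protein near the mRNA exit that is also known as the laminin receptor and which was detected on 6 of 32 arrays. Signals of different probes are not levels of the mRNAs, so these classes describe the probes. Of the 202 probes in the top 1% of the array's signals 39 were probes of members.

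Several probes measured 13 members. All probes of a gene had a negative change in 13 of these, and every probe was lower past the threshold in 6. Over all 79 probes 51 were lower and 0 higher, where 16.3% of all probes were lower, and 74 changes were negative. Rps19, mutated in Diamond-Blackfan anaemia, fell by 0.71 with a dim probe detected on 25 arrays and by 0.52 with a bright one (14.29 ± 0.03 at E6.5, n = 4, and 13.76 ± 0.07 at E17.5, n = 5, limma's adjusted p over probes = 1.69e-05). Rplp0, the base of the stalk, was not called with the probe taken (-0.21, limma's adjusted p = 0.439) and was lower with a brighter one (-0.54, SE 0.12, limma's adjusted p over probes = 8.35e-04). For Rpl38 and Rps24 the probe taken was lower, while their bright probes gave -0.13 and -0.19 and did not pass (limma's adjusted p over probes = 0.198 and 0.153).

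**Figure D4:**
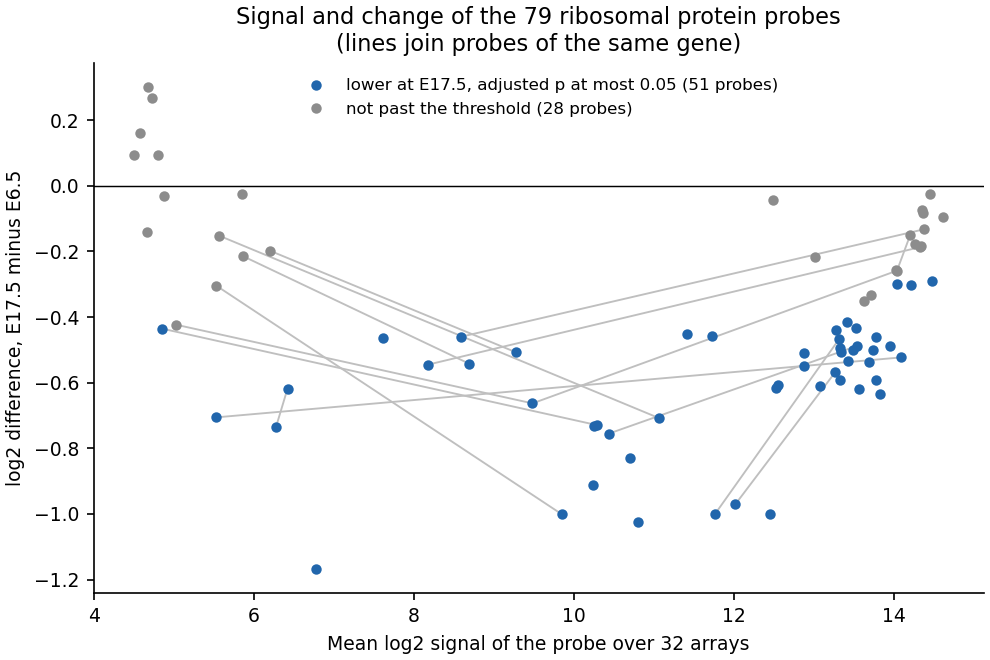
Mean log2 signal of each of the 79 probes over 32 arrays (horizontal axis) against its log2 difference between E17.5 and E6.5 (vertical axis), with probes of the same gene joined by grey lines. The 51 probes in blue were lower at an adjusted p of at most 0.05 over all probes. The 15 probes above a signal of 14 lie between -0.52 (Rps19) and -0.02 (Rpl41), and those between 7 and 14 reach from -1.02 (Rpl13a) to -0.04 (Rps27l).

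Rps3, Rps9, Rpl35a and Rps3a1 were among the members with the largest falls, with standard errors of 0.22 to 0.28. Rps3, at the entry of the mRNA channel, had 12.46, 12.48, 12.31 and 12.05 at E6.5 and 12.20, 11.30, 11.29, 10.76 and 11.09 at E17.5. The first E17.5 mouse lay among those of E6.5, and the group mean went from 12.33 to 11.33 (SE of the difference 0.28, limma's adjusted p = 0.00588). Rpl35a, of the large subunit and on the Diamond-Blackfan list, went from a mean of 12.95 to 11.95 (SE of the difference 0.22). Rps9 changed by -0.97 (SE 0.22) and Rps3a1 by -0.83 (SE 0.26). Brighter probes of Rps3 and Rps9 gave smaller changes of -0.47 and -0.57, both past the threshold (limma's adjusted p over probes = 0.00153 and 9.79e-04).

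With Rpl29, which was added after its values were seen, the probes taken for these genes deviated together from their time point means. Between pairs of the 5 genes the correlation over the 32 mice was 0.79 to 0.94, with a median of 0.86, against a median of 0.10 over pairs of the 55 members detected on all arrays. These are deviations on shared arrays and are given without a test. They followed the number in the sample's GEO description, which runs from 1 to 32 and whose meaning the labels do not give. Rps3 was above its time point mean in 15 of 16 mice with numbers 1 to 16 and in 1 of 16 with numbers 17 to 32, and Rps3a1 likewise in 15 and 1. Deviations of another probe of the same gene correlated with those of the probe taken at 0.65 for Rps3. For Rps9 this correlation was -0.40, and for Rpl29, with a dim probe detected on 26 arrays, -0.55. Rpl35a and Rps3a1 had no other probe.

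The numbers are uneven over the time points, with 3 of 4 mice of E6.5 and 1 of 5 of E17.5 among the first 16. With the number as a linear covariate, Rps3 changed by -0.57 (limma's adjusted p = 0.0521) and Rps3a1 by -0.37 (limma's adjusted p = 0.147), and neither passed. With runs of 8 numbers as a block both stayed past the threshold, at -0.79 (limma's adjusted p = 1.42e-04) and -0.47 (limma's adjusted p = 0.0103). Over the whole group the number called 11 members, 7 falling and 4 rising with it, where 10.1% of all genes were called. The members called in either direction from E6.5 to E17.5 were 41 with the covariate and 44 with the block. Of all genes 2402 were lower and 1719 higher with the covariate, and 2382 and 1695 with the block. The main fit had 2285 and 1654.

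**Figure D5:**
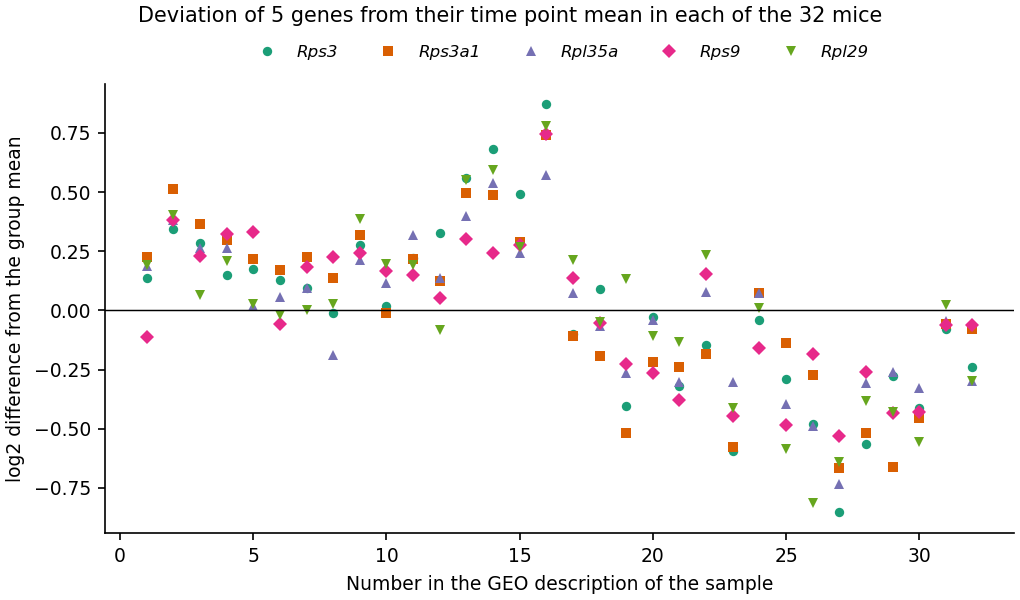
Deviation of Rps3, Rps3a1, Rpl35a, Rps9 and Rpl29 from their time point mean (vertical axis, log2 scale) in each of the 32 mice, by the number in the sample's GEO description (horizontal axis). Values are of the probe taken for each gene. Rps3 lies above zero in 15 of the first 16 mice and in 1 of the last 16. The other 4 genes run close to it.

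Ribosomal protein genes can have paralogs, some of which can take their place in the ribosome, and 6 paralogs were measured. Without these and Rps23rg1, 42 of 57 members were lower from E6.5 to E17.5 (median -0.50). With the probe taken, 1 of the 6 paralogs was lower from E6.5 to E17.5. This was Rpl22l1, which changed by -0.46 (SE 0.13, limma's adjusted p = 0.00864, or 0.081 with median scaling), while Rpl22 itself changed by -0.91. Rpl7l1, a paralog of Rpl7, was not called with the probe taken (-0.20) and was lower with a brighter one (-0.51, SE 0.09, limma's adjusted p over probes = 0.000126). The difference between the probes of Rpl22l1 and Rpl22 within each mouse rose by 0.45. This did not pass 0.05 (2-sided exact permutation test, n = 4 and 5, p = 0.0556). Rps27l, known in mammals as a gene induced by p53, changed by -0.04 and Rps27 by -0.50 (limma's adjusted p = 0.857 and 0.00969). The call of Rps27 was lost with median scaling (limma's adjusted p = 0.123), with the description number as a covariate (0.0685) and without the 5 mice high in placental and yolk sac markers described below (0.0554).

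The difference between Rps27l and Rps27 rose by 0.46 (exact permutation test, p = 0.0635), and that between Rpl36al and Rpl36a by 0.33 (exact permutation test, p = 0.238). The smallest p that the 126 arrangements allow is 0.00794. Rpl3l and Rpl39l were detected on 4 and 1 of 32 arrays, and no difference from Rpl3 and Rpl39 is given for probes so near background. Of 5 pairs computed, 3 are given, and their p-values were not adjusted. Many ribosomal protein genes also have processed copies of nearly the same sequence, and whether the probes bind RNA from these was not tested.

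Genes that make ribosomes were lower as well. Of 50 measured genes of ribosome biogenesis, 29 were lower (58%, against 17% of all genes) and 1 higher (2%, against 12.3%) from E6.5 to E17.5, with a median change of -0.55, and Gnl3, a nucleolar protein of proliferating cells, fell by 0.98 (SE 0.14, limma's adjusted p = 4.23e-06). Gar1, a component of the machinery that converts uridines of ribosomal RNA, fell by 0.69 (SE 0.12), and Ddx51, a helicase of large-subunit assembly, by 0.71 (SE 0.12). Of 11 genes of RNA polymerase I and its factors 6 were lower (54.5%) and 0 higher (median -0.61), among them Polr1a, its largest subunit, with -0.87 (SE 0.21). Of 9 other genes with TOP mRNAs 4 were lower (44.4%) and 0 higher (median -0.33), among them Fau, which encodes the small-subunit protein eS30 fused to a ubiquitin-like protein, with -0.43 (SE 0.11).

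For genes of the mitochondrial ribosome the share of lower genes depended on the span. Of 75 measured, 10 were lower (13.3%, against 17% of all genes) and 1 higher (1.33%, against 12.3%) from E6.5 to E17.5 (median -0.16). From E8.5 to E17.5 29.3% were lower (against 13.6% of all genes), and from E10.5 to E17.5 25.3% (against 9.35%). From NP to E17.5 the share was 44% (against 19.1%). The higher gene from E6.5 to E17.5 was Mrps6, of the small mitochondrial subunit. It rose from 9.33 ± 0.15 (n = 4) to 11.84 ± 0.27 (n = 5, SE of the difference 0.22, limma's adjusted p = 8.82e-10). Mrps17 fell by 0.58 (SE 0.12).

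Of 32 initiation factors 7 were lower (21.9%, against 17% of all genes) and 1 higher (median -0.15), with Eif3l at -0.44 (SE 0.09) and Eif5, which checks the start codon, rising by 0.74 (SE 0.12, limma's adjusted p = 1.36e-05). Of 11 elongation and release factors 3 were lower (27.3%) and 0 higher (median -0.28), and Gspt2, a release factor, fell by 1.04 (SE 0.11). Of 29 genes that signal growth to ribosomes 4 were lower (13.8%) and 1 higher (median 0.03). Igf1, a growth factor of the uterus, fell by 2.54 (SE 0.19, limma's adjusted p = 4.59e-11), and Myc, a transcription factor that drives ribosome synthesis, by 0.89 (SE 0.21, limma's adjusted p = 0.00184) with a probe detected on 24 of 32 arrays. With median scaling Fau, Mrps17 and Eif3l no longer passed.

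Signals of cell type markers moved over the same time, and cell shares were not measured. All 6 smooth muscle markers, Myh11 and Acta2 among them, were detected on all arrays, and their mean lay between 11.55 and 12.45 over all mice, with 0 of 6 called from E6.5 to E17.5. All 5 measured markers of dividing cells were lower, and their mean per mouse lay between 8.05 and 9.03 at E6.5 and between 6.73 and 7.59 at E17.5. All 5 epithelial markers were higher, with means of 7.77 to 8.41 and 11.42 to 11.86, and all 6 of the yolk sac were higher, with 4.87 to 5.13 and 7.20 to 12.49. Of 9 natural killer cell markers 6 were higher and 1 lower, with 6.10 to 6.65 and 7.06 to 9.13, and of 4 decidual markers 2 were higher and 2 lower, with 7.24 to 7.63 and 7.95 to 8.79. Of 5 red cell markers 2 were higher (5.92 to 6.58 and 6.44 to 8.04), and of 2 measured placental markers neither was called (4.58 to 4.90 and 4.46 to 6.66). The part of these shifts in the change of the ribosomal protein genes was not tested. In 5 mice the placental and yolk sac markers stood over 0.5 above the median of their time point. These were 1 each at E10.5, E12.5 and E15.5 and 2 at E17.5. Without these 5 mice 35 members were lower from E6.5 to E17.5. Of all 13439 genes 1693 were then lower and 1421 higher, against 2285 and 1654 in the main fit.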

How the data were processed

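RNA was amplified, labelled with biotin and hybridised to Illumina MouseRef-8 v2 arrays, 1 mouse per array. The authors deposited a probe intensity on a linear scale with a detection p-value for each array. They also deposited log2 values, made from these with limma: normexp correction of the background on control probes came first, then quantile normalisation and the log2 scale. Of 25697 probes, 5528 whose detection p-value exceeded 0.05 on each of the 32 arrays were left out. These log2 values were used here. Values recomputed from the intensities with neqc (offset 16) differed from them by at most 0.0339. Probes were named through the platform annotation updated by the reference table, 18903 with 1 symbol and 1266 with none, and for a gene with several probes the one that varied most over the arrays (by SD) was taken.

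Time points were compared with limma 3.58.1 in R 4.3.3, with the means of the 7 groups fitted together, 2-sided, with Benjamini-Hochberg adjustment over 13439 genes within each comparison and a threshold of 0.05. The fit was tested on simulated data. Paralogs were compared with exact permutation tests over mice, and figures were drawn with matplotlib 3.10.9. Nothing in the labels says how many litters or cages the mice came from, and p-values measure the spread between these mice. The members, gene lists and comparisons were chosen with earlier results of these data known.

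Members were named by rule: the 10 with the largest falls from E6.5 to E17.5 past the threshold, those past it between consecutive time points, stalk proteins, Rpl5, Rps6, Rpsa, and paralogs with their parent genes. Of other lists up to 3 genes with the smallest adjusted p were considered, with Igf1 and Myc. Rpl29, Rps19, Rpl41, Rpl17 and the markers were chosen after their values were seen. The alternatives covered the source of the values, background, normalisation, detection filter, probe, linear model, replicate number and each mouse left out. Those on the description number and on mice high in placental and yolk sac markers were added after seeing the data.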

Additional observations from a re-analysis of the deposited data

Results flagged for a closer look

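The mean of the 64 ribosomal protein genes and the 30 members named by rule were looked at in each of 7 groups, 217 groups in all, for a mouse that stood apart from the others of its group by Dixon's gap. This was so in 16 groups, where chance alone sets apart about 1 in 20, and in no group for the mean of the 64 genes. The values are given on the log2 scale and no explanation was tested.

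The mouse E15.5 replicate 5 stood apart in 3 genes: it was the lowest for Rpl35a (11.63, next 12.42) and for Rps27 (12.97, next 13.37) and the highest for Rpl22 (10.37, next 9.88). The mouse E10.5 replicate 4, 1 of the 5 high in placental and yolk sac markers, was the lowest for Rpl27a (9.69, next 10.02) and Rpl30 (10.08, next 10.45). The mouse E17.5 replicate 1 was the highest for Rps9 (12.28, next 11.48) and Rpl10 (14.19, next 13.88). For Rps3a1 the mouse E6.5 replicate 4 was the lowest (10.43, next 11.23) and E8.5 replicate 1 the highest (11.11, next 10.45), and their description numbers are 29 and 2.

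In NP, replicate 2 was the highest for Rpl30 (11.14, next 10.55) and replicate 4 the lowest for Rpl35a (12.56, next 12.93). E10.5 replicate 5 was the highest for Rps15a (7.19, next 6.58). Single mice were also high for Rpsa at E10.5 (5.44, next 4.59) and at E17.5 (5.77, next 4.86) and for Rpl39l at E8.5 (5.02, next 4.42) and at E12.5 (4.92, next 4.52), which are probes detected on 6 and 1 of 32 arrays.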

How the results depend on the processing

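From E6.5 to E17.5 the count of 43 called members lay between 35 and 49 under every alternative except median scaling, which gave 23, and between 37 and 44 when single mice were left out. Median scaling also gave a median change of -0.30 from E6.5 to E17.5. Its counts were 20 from E10.5 to E17.5, 0 from E8.5 to E10.5, 0 from NP to E8.5 and 4 from E12.5 to E15.5. The cause was not tested. Leaving out single mice gave 27 to 34 from E8.5 to E17.5, 27 to 36 from E10.5 to E17.5, 43 to 50 from NP to E17.5, 36 to 45 in the F test and a median change of -0.49 to -0.44. None of these results was reversed.

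The small counts between neighbouring time points moved most. From NP to E6.5, where 1 member was called, the count was 0 with neqc values, with the replicate block and without the mice high in placental and yolk sac markers, and 2 without background correction, with the brightest probe and with intensity trend and array weights. From E6.5 to E8.5 it was 0 with the brightest probe. From E8.5 to E10.5 it was 0 without a detection filter and without those mice, and 2 without background correction, with trend and weights and with the replicate block. From E10.5 to E12.5 it was 1 without background correction, 6 with trend and weights and 2 with runs of 8 description numbers as a block. From E12.5 to E15.5 it was 5, 8 and 4 in the same order, 2 with probes detected on all arrays and with the replicate block, and 3 without a detection filter and with the brightest probe. From NP to E8.5 it was 6 without background correction, 7 with trend and weights, 4 with probes detected on all arrays and with the brightest probe, and 1 without those mice. Leaving out single mice gave 0 to 1, 0 to 1, 0 to 2, 0 to 2, 0 to 4 and 0 to 0 over the 6 consecutive intervals and 0 to 4 from NP to E8.5.

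Deviations of same-numbered mice had correlations of -0.41 to 0.43 over 90 pairs, with a median of 0.04 and 27 over 0.1. Differently numbered mice were not compared, so this cannot tell whether the replicate number pairs mice. Within each time point the replicate number runs in the order of the description number. With the replicate number as a block 46 members were called from E6.5 to E17.5, and of all genes 2376 were lower and 1710 higher. Of the named members, Rps3a1 lost its call without E6.5 replicate 1, E6.5 replicate 2 or E17.5 replicate 4 (limma's adjusted p 0.0534 to 0.0614), Rpl10 in 5 such fits, and Rpl38 without E6.5 replicate 1. Median scaling lost 8 named members, Rpl10, Rpl22l1, Rpl36a, Rpl7a, Rps27, Rps3, Rps3a1 and Rps6. The description number as a covariate lost Rpl10, Rps27, Rps3 and Rps3a1, runs of 8 numbers lost Rpl38, and leaving out the mice high in placental and yolk sac markers lost Rpl10, Rpl38, Rps27 and Rps3a1. The brightest probe lost Rpl38 and Rps24 and gained Rpl7l1 and Rplp0. The rise of Rpl22l1 over Rpl22 had an exact permutation p between 0.0238, without background correction, and 0.183, with median scaling. With probes detected on all arrays the median change of all genes was -0.11, beside which changes should be read. The beadchip as a block was not run, because the column headers do not name the chip.

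With 4 or 5 mice a group, small changes between neighbouring time points lie near the limit of the fit. Probes near the top of the scale and probes near background limit what the 64 members can show, and 24 symbols of the family have no value here.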
